A study of Rattus norvegicus with 16 samples.

Results

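The 10 genes described here encode cyclic nucleotide phosphodiesterases of the rat right ventricle: Pde1a, Pde1c, Pde2a, Pde3a, Pde3b, Pde4a, Pde4b, Pde4d, Pde5a and Pde9a. They were taken by name from the 17245 genes measured, and all 10 had a value, each from a single probe set. The genes were set in 3 classes by what their enzymes hydrolyse. The 3 PDE4 genes act on cAMP, Pde5a and Pde9a act on cGMP, and the other 5 act on both.

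Cyclic AMP and cyclic GMP are second messengers made by adenylyl and guanylyl cyclases, and phosphodiesterases are the enzymes that break them down. In heart muscle cAMP carries the beta-adrenergic signal through protein kinase A to calcium channels, the sarcoplasmic reticulum and the sarcomere, while cGMP carries the signals of nitric oxide and natriuretic peptides through protein kinase G. Different phosphodiesterases sit at different places in the cell, and several of them read one messenger while degrading the other.

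The rats were male, of the Wistar strain, and weighed 160 to 180 g. RNA of the right ventricular wall was used, and each of 16 samples was hybridised to 1 Affymetrix array. Rats were either sham operated or carried a band around the pulmonary artery, which loads the right ventricle with pressure, but which sample had which operation is not stated. There were 7 arrays labelled CON, 5 labelled RVF+ and 4 labelled RVF, and the title of the series concerns clinical symptoms of right ventricular failure. The last 2 names are not explained and are kept as given. Neither age nor time under load is given. No label states that the samples of a group were separate animals, so the p-values measure the spread between samples, which may be technical. Values are log2 of the deposited intensity, so that a difference of 1 means a doubling of signal. The probe sets of different genes differ in brightness for technical reasons, and levels are compared only between arrays for the same gene.

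Array RVF+ 8 stood apart before any phosphodiesterase was considered. Over all genes it differed from the mean of CON by a root mean square of 0.711, against 0.326 to 0.448 in the other RVF+ arrays, 0.358 to 0.417 in RVF and 0.183 to 0.248 for each CON array against the other CON arrays. The summed intensity of 10 ventricular cardiomyocyte markers was 23533 in RVF+ 8, 32564 to 36458 in the other RVF+ arrays, 35708 to 37545 in RVF and 37662 to 39671 in CON. The summed intensity of 10 macrophage and monocyte markers was 5727 in RVF+ 8, 2111 to 3142 in the other RVF+ arrays, 1813 to 2488 in RVF and 1082 to 1583 in CON. All arrays thus carried the cardiomyocyte genes that the tissue label calls for. In a tissue sample fewer cells of a type and less RNA per cell cannot be told apart. Values without RVF+ 8 are given for the counts of the 10 genes, for pathway counts that changed and beside some single genes. Marker counts were made with all arrays only.

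Of the 10 phosphodiesterase genes, 3 rose and 6 fell in RVF+ against CON (limma, Benjamini-Hochberg adjusted p under 0.05 over all genes). In RVF against CON 2 rose and 5 fell. Over all genes 27.7% were called in the first comparison, 14.1% higher and 13.6% lower, and 17.1% in the second, 8.86% higher and 8.29% lower. The median log2 difference of the 10 genes was -0.32 in RVF+ and -0.28 in RVF, beside -0.012 and -0.0087 over all genes. The 10 genes were chosen with earlier results of these data known, so setting them beside all genes is a description and not a test. When the call also required more than a 1.2-fold change, 4 genes remained in RVF+ (Pde1c, Pde3a, Pde3b and Pde4a) and 3 in RVF (Pde1c, Pde3a and Pde4a), where 7.62% and 3.83% of all genes were called. Without RVF+ 8 the same 9 and 7 genes were called, with medians of -0.29 and -0.28, and 24.9% and 24.6% of all genes were called. Both comparisons use the same 7 CON arrays and are not independent of each other. Arrays of the 2 groups did not overlap for 7 of the 10 genes in RVF+ against CON and for 7 in RVF against CON, where 14.6% and 18.8% of all genes had no overlap.

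By substrate, all 3 cAMP genes fell in both comparisons. Of the 5 dual-substrate genes, Pde1a and Pde3b rose in both, Pde1c and Pde3a fell in both, and Pde2a fell in RVF+. Of the 2 cGMP genes, Pde5a rose in RVF+ and Pde9a passed in neither. The class medians in RVF+ and RVF were -0.42 and -0.51 for cAMP, -0.36 and -0.16 for both substrates, and 0.15 and 0.030 for cGMP. The dual class has members on both sides of 0, and its median is the value of Pde2a.

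**Figure D1:**
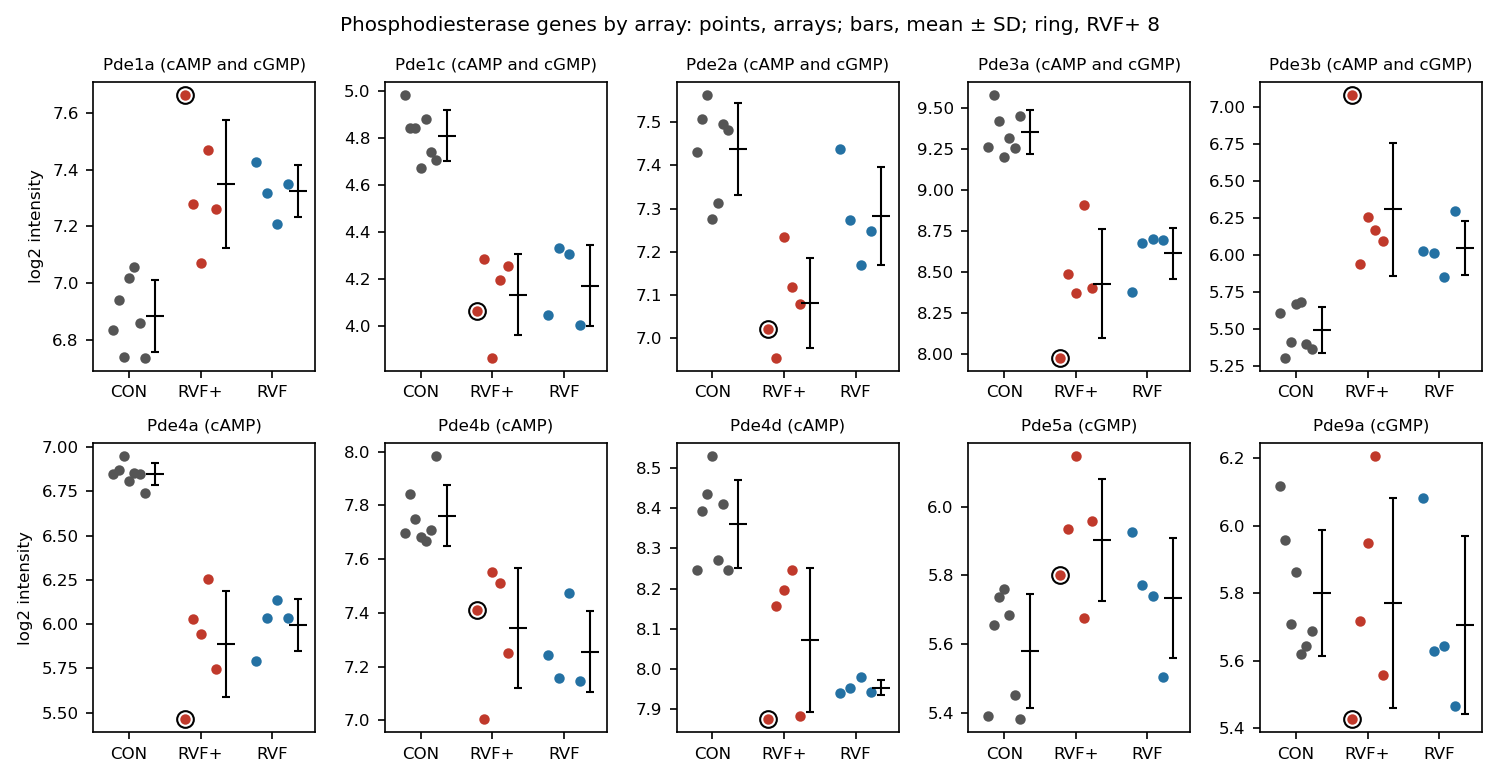
Log2 intensity (vertical axis) of each phosphodiesterase gene in each array, by group (horizontal axis), with the mean and SD beside the points and a ring around RVF+ 8. For Pde3a and Pde4a all RVF+ and RVF arrays lie below all CON arrays, and for Pde1a and Pde3b all lie above them. Vertical axes differ between panels and do not start at 0.

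**Figure D2:**
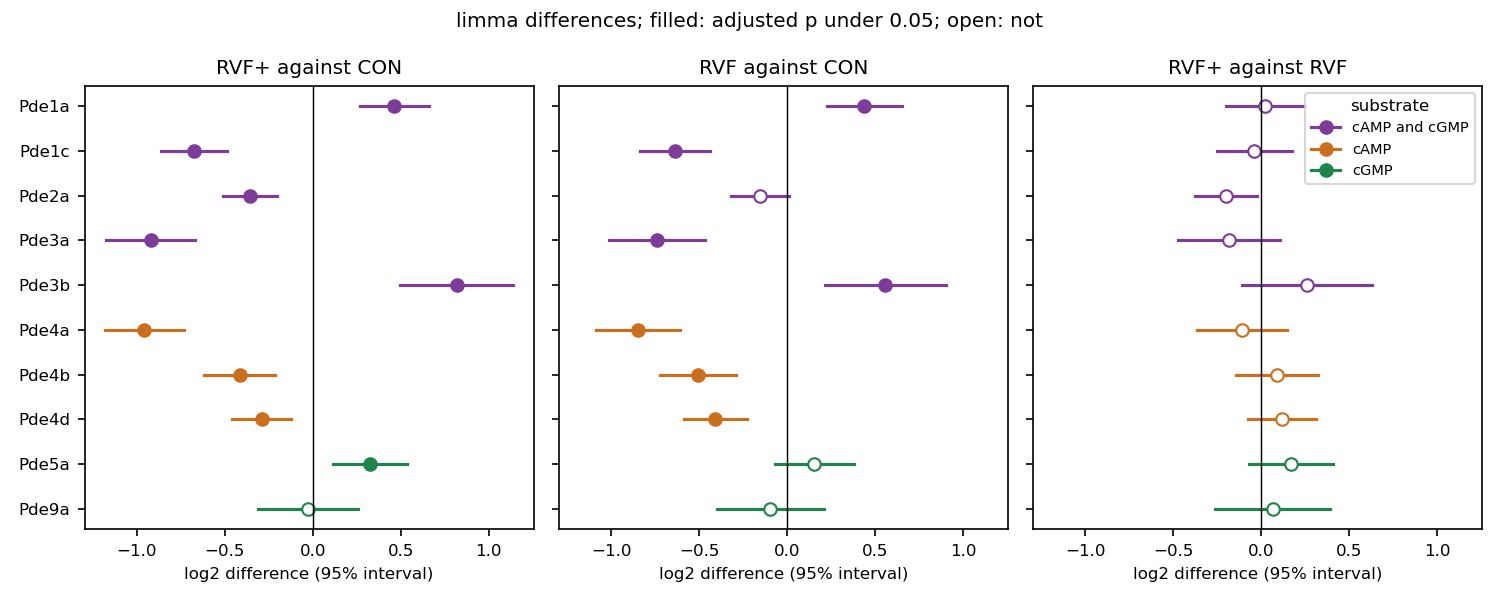
Log2 difference between groups (horizontal axis) with its 95% interval from limma for each gene (vertical axis), coloured by substrate. Filled points passed an adjusted p of 0.05: 9 genes in RVF+ against CON, 7 in RVF against CON and 0 in RVF+ against RVF.

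The PDE4 family was lower in both groups. Its enzymes are specific for cAMP and are the targets of rolipram. Pde4a had the largest fall of the 10 genes in each comparison. Its log2 intensity lay between 6.74 and 6.95 in CON, with a median of 6.85. It was 5.46, 6.03, 5.94, 6.26 and 5.75 in RVF+ 8 to 12 and 5.79, 6.03, 6.13 and 6.03 in RVF 13 to 16. No array of either group reached the CON range, and RVF+ 8 was the lowest of all. The difference was -0.96 ± 0.11 (log2 difference ± SE, here and below) in RVF+, which is 1.94-fold lower (adjusted p = 6.20e-06), and -0.85 ± 0.11 in RVF, 1.80-fold lower (adjusted p = 5.59e-05). Without RVF+ 8 the first was -0.85 ± 0.088 (adjusted p = 2.66e-06).

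Pde4b, whose product has been placed near the L-type calcium channel of heart muscle cells, ran from 7.67 to 7.98 in CON with a median of 7.71. Its values were 7.41, 7.00, 7.55, 7.51 and 7.25 in RVF+ 8 to 12 and 7.24, 7.16, 7.47 and 7.15 in RVF 13 to 16. All 9 lay below the CON arrays, and RVF+ 8 was in the middle of its group. The falls were 1.33-fold in RVF+ (-0.42 ± 0.096, adjusted p = 0.00347) and 1.42-fold in RVF (-0.51 ± 0.10, adjusted p = 0.00230).

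Pde4d encodes an enzyme found in the ryanodine receptor complex. In CON it ran from 8.25 to 8.53 with a median of 8.39. Values in RVF 13 to 16 were 7.94, 7.95, 7.98 and 7.94, a mean of 7.95 ± 0.019 (SD, n = 4). In RVF+ 8 to 12 they were 7.88, 8.16, 8.20, 8.25 and 7.88. The RVF arrays were thus close together below CON, while the RVF+ arrays fell into 2 at 7.88 and 3 near the lower edge of CON, with RVF+ 11 inside its range. The falls were 1.33-fold in RVF (-0.41 ± 0.085, adjusted p = 0.00293) and 1.22-fold in RVF+ (-0.29 ± 0.080, adjusted p = 0.0113, and -0.24 ± 0.079 with adjusted p = 0.0325 without RVF+ 8).

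Because the 3 PDE4 genes were lower together and degrade cAMP, the bases before their annotated starts were searched for the cAMP response element and other promoter motifs. RefSeq windows of assembly GRCr8 were given for 8 of the 10 genes, 17 windows in all, since Pde4d has 5, Pde4a 4 and Pde2a and Pde4b 2 each. The 250 bases before each start were read on both strands. The full element TGACGTCA was in 0 of the 17 windows and in 1.59% of all 33469 windows. Its core TGACG was in 4 of the 17 (23.5%), all of Pde4a or Pde4d, and in 18.2% of all windows. The windows of Pde4b, Pde1c, Pde2a and Pde3a, which were also lower in RVF+ against CON, did not hold the core. The arrays do not show which start is used, so the stretches are shown only as the sequences of Pde4a and Pde4d that hold it. They run 5′ to 3′ on the gene's strand, with the core (TGACG, or CGTCA where it lies on the other strand) in capitals.
Pde4a, chr8:27966946-27966986, plus strand: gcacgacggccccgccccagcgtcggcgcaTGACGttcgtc
Pde4a, chr8:27999365-27999412, plus strand: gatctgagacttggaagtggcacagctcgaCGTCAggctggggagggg
Pde4d, chr2:42592499-42592552, plus strand: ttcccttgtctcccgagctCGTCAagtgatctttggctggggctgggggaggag
Pde4d, chr2:42592525-42592589, plus strand: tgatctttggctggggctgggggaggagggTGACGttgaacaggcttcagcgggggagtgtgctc
Pde4d, chr2:42767568-42767616, plus strand: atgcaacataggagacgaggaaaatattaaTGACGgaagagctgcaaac
In these 5 stretches the core begins 11 and 18 bases before the start in Pde4a, and 231, 194 and 19 bases before it in Pde4d. The first pair of Pde4d stretches comes from 1 window and overlaps.

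Other motifs were at shares that can be set beside all windows. The GC box GGGCGG was in 7 of 17 windows (41.2% against 30.5%), GATAA in 5 (29.4% against 23.5%), the NFAT core TGGAAA in 4 (23.5% against 19.7%), CCNNNNNNGG, the spacing of a CArG box, in 12 (70.6% against 65.1%) and CCAAT in 1 (5.88% against 34%). The MEF2 spacing CTANNNNTAG, the TATA box TATAAA and the E-box CACGTG had 0 matches, against 3.41%, 12.9% and 5.59%. Matches of different motifs can overlap. These are matches of letters in a short window and say nothing of a factor's binding.

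The PDE3 genes moved in opposite directions. Both enzymes act on cAMP and cGMP and are slowed by cGMP. Pde3a encodes the form best known in heart muscle, a target of milrinone, and Pde3b the form best known in fat and liver. Pde3a ran from 9.20 to 9.58 in CON with a median of 9.31, and was 7.98, 8.49, 8.37, 8.91 and 8.41 in RVF+ 8 to 12 and 8.38, 8.68, 8.70 and 8.69 in RVF 13 to 16. All 9 arrays were below CON, with RVF+ 8 lowest and RVF+ 11 highest. It was 1.90-fold lower in RVF+ (-0.92 ± 0.12, adjusted p = 2.95e-05) and 1.67-fold lower in RVF (-0.74 ± 0.13, adjusted p = 0.000681). Without RVF+ 8 the fall in RVF+ was -0.81 ± 0.11 (adjusted p = 2.36e-05).

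Pde3b ran from 5.30 to 5.68 in CON with a median of 5.41, near the median of 5.57 over all genes. It was 7.08, 5.94, 6.25, 6.17 and 6.09 in RVF+ 8 to 12 and 6.03, 6.01, 5.85 and 6.30 in RVF 13 to 16. Every one of these arrays lay above CON, and RVF+ 8 lay far above the others. The rise was 1.76-fold in RVF+ (0.82 ± 0.15, adjusted p = 0.000667) and 1.47-fold in RVF (0.56 ± 0.16, adjusted p = 0.0248). Without RVF+ 8 it was 0.62 ± 0.098 in RVF+ (adjusted p = 0.000147), and 0.56 ± 0.098 in RVF with an adjusted p of 0.000400. The call in RVF ended without RVF 13, 14 or 16 (adjusted p = 0.0583, 0.0536 and 0.0926), with differences of 0.56, 0.57 and 0.48.

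The PDE1 genes also moved apart. Calcium and calmodulin switch on the enzymes of this family. The product of Pde1a prefers cGMP and is known from vascular smooth muscle, and that of Pde1c takes both messengers with like affinity. Pde1a ran from 6.74 to 7.06 in CON with a median of 6.86, and was 7.66, 7.28, 7.07, 7.47 and 7.26 in RVF+ 8 to 12 and 7.43, 7.32, 7.21 and 7.35 in RVF 13 to 16. All were above CON, RVF+ 10 only just. It was 1.38-fold higher in RVF+ (0.46 ± 0.094, adjusted p = 0.00129) and 1.36-fold higher in RVF (0.44 ± 0.10, adjusted p = 0.00542). Without RVF+ 8 the rise in RVF+ was 0.38 ± 0.085 (adjusted p = 0.00265).

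Pde1c was dim, with all arrays below the median of all genes, where the deposited values compress differences. It ran from 4.67 to 4.98 in CON with a median of 4.84, and was 4.07, 4.29, 3.86, 4.19 and 4.25 in RVF+ 8 to 12 and 4.05, 4.33, 4.30 and 4.00 in RVF 13 to 16. No array of either group reached CON, and RVF+ 8 was not the lowest. It fell 1.60-fold in RVF+ (-0.68 ± 0.089, adjusted p = 2.98e-05) and 1.56-fold in RVF (-0.64 ± 0.095, adjusted p = 0.000158). Of the calmodulin genes only Calm3 was measured, with -0.060 ± 0.086 in RVF+ and -0.12 ± 0.092 in RVF (adjusted p = 0.659 and 0.436).

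The 2 pairs were compared within arrays, which removes any scaling of a whole array. They were chosen because one gene of each rose and the other fell with no overlap with CON, which fixes the separation of their difference from CON, so the values are a description with no test. Pde3b minus Pde3a averaged -3.86 ± 0.27 over the 7 CON arrays, -2.12 ± 0.73 over the 5 RVF+ arrays and -2.57 ± 0.23 over the 4 RVF arrays (mean ± SD). It was 1.74 higher in RVF+ than in CON, or 1.43 without RVF+ 8, and 1.30 higher in RVF. Pde1a minus Pde1c averaged 2.08 ± 0.17, 3.22 ± 0.25 and 3.15 ± 0.24 in the same order, a shift of 1.14 in RVF+, or 1.05 without RVF+ 8, and of 1.08 in RVF. Between RVF+ and RVF the shifts were 0.44 and 0.062, which became 0.14 and -0.033 without RVF+ 8. The level of a pair reflects its 2 probe sets as well as RNA, and only its change between groups can be read.

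**Figure D3:**
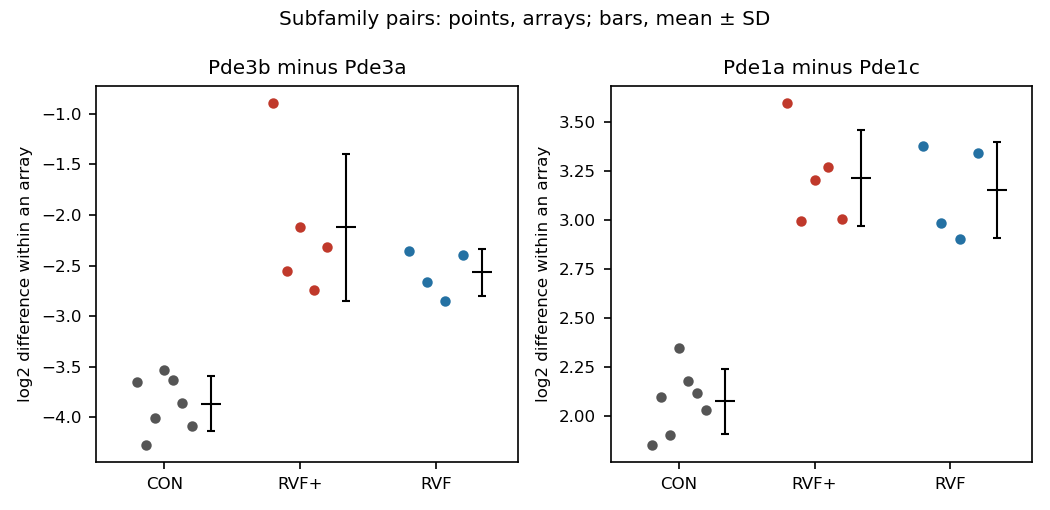
Difference in log2 intensity within each array (vertical axis) between Pde3b and Pde3a (left) and between Pde1a and Pde1c (right), by group, with mean and SD. All RVF+ and RVF arrays lie above all CON arrays in both panels, and RVF+ 8 is the highest point on the left.

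Pde2a encodes an enzyme that cGMP speeds up, so that it degrades cAMP faster when cGMP is present. It ran from 7.28 to 7.56 in CON with a median of 7.48. It was 7.02, 6.96, 7.23, 7.12 and 7.08 in RVF+ 8 to 12, all below CON, and 7.44, 7.27, 7.17 and 7.25 in RVF 13 to 16, of which 3 were below CON and RVF 13 was at its centre. It was 1.28-fold lower in RVF+ (-0.36 ± 0.073, adjusted p = 0.00150), with -0.34 ± 0.078 without RVF+ 8. In RVF the difference was -0.16 ± 0.079 and did not pass (adjusted p = 0.198, 95% interval -0.32 to 0.0099).

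Of the cGMP-specific genes 1 rose in RVF+ and neither passed in RVF. Pde5a, the target of sildenafil and an enzyme of vascular smooth muscle, ran from 5.38 to 5.76 in CON with a median of 5.66. It was 5.80, 5.93, 6.15, 5.68 and 5.96 in RVF+ 8 to 12 and 5.92, 5.77, 5.74 and 5.50 in RVF 13 to 16. In RVF+ 4 of 5 arrays were above CON and RVF+ 11 was inside its range, while 2 RVF arrays were above and 2 inside. It was 1.25-fold higher in RVF+ (0.32 ± 0.10, adjusted p = 0.0217, and 0.35 ± 0.11 without RVF+ 8). The call ended without RVF+ 10 (0.26 ± 0.10, adjusted p = 0.0688) and after quantile normalization (0.26 ± 0.099, adjusted p = 0.0564). In RVF the difference was 0.15 ± 0.11 (adjusted p = 0.366, 95% interval -0.070 to 0.38).

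Pde9a, whose enzyme has a very high affinity for cGMP, ran from 5.62 to 6.12 in CON with a median of 5.71. It was 5.43, 5.72, 5.95, 6.21 and 5.56 in RVF+ 8 to 12 and 6.08, 5.63, 5.64 and 5.47 in RVF 13 to 16, so that all 3 groups overlapped. Its differences were -0.029 ± 0.14 in RVF+ (adjusted p = 0.904, 95% interval -0.31 to 0.26) and -0.095 ± 0.14 in RVF (adjusted p = 0.715, 95% interval -0.40 to 0.21). A change of up to about these bounds could not be seen with this number of arrays.

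RVF+ 8 lay farthest from the CON mean, in the direction of its group's mean, for 6 of the 10 genes: Pde1a, Pde3a, Pde3b, Pde4a, Pde4d and Pde9a. For Pde1c and Pde5a that array was RVF+ 10, and for Pde2a and Pde4b it was RVF+ 9. RVF+ 8 also had the lowest summed cardiomyocyte markers and the highest summed macrophage markers, and the part of cell makeup in its values was not tested. With RVF+ 8 left out, the 9 genes called in RVF+ were still called, with differences between -0.85 and 0.62.

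**Figure D4:**
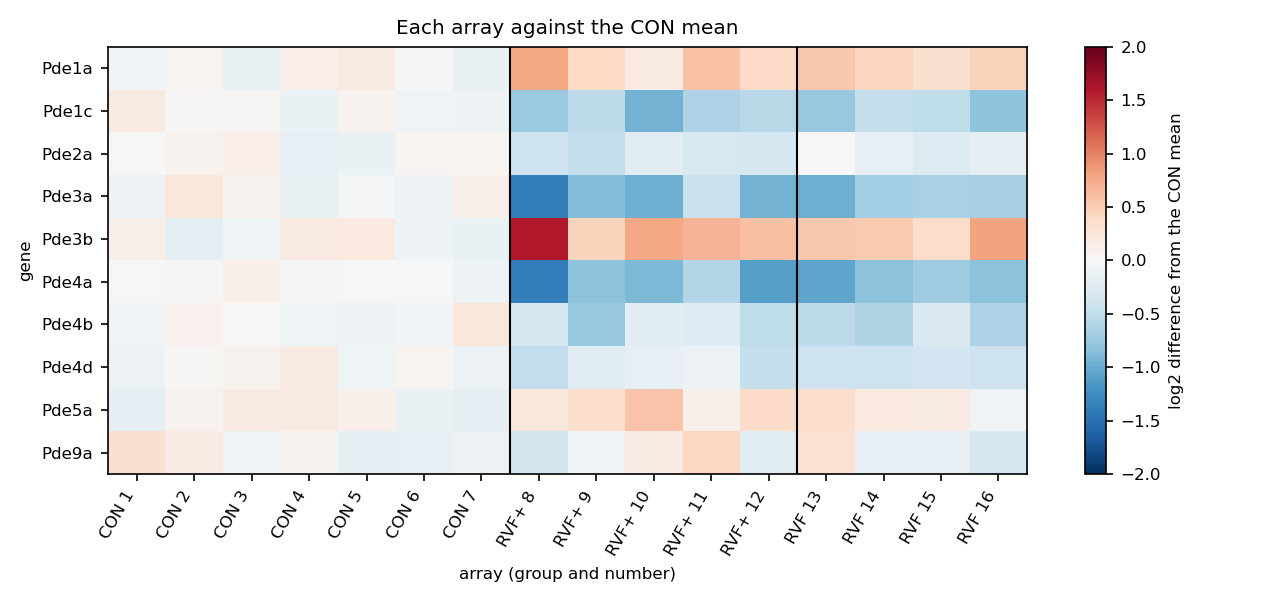
Log2 difference of each array (horizontal axis, by group and number) from the CON mean of each gene (vertical axis), in colour from blue (lower) to red (higher). RVF+ 8 shows the deepest colours for Pde3a, Pde3b and Pde4a, at -1.37, 1.60 and -1.38, and the other RVF+ and RVF arrays have the same sign for these genes.

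RVF+ and RVF were compared directly, which also tests whether their differences from the shared controls were unequal. None of the 10 genes passed, as 0 of 17245 genes did by limma, and 0% is thus the background. At an unadjusted p under 0.05 there were 1242 genes, of which Pde2a was the only member. Pde2a was lower in RVF+ than in RVF by -0.20 ± 0.084 (adjusted p = 0.622, 95% interval -0.38 to -0.024), with 4 of 5 RVF+ arrays below all RVF arrays. For the other 9 genes the differences ran from -0.18 for Pde3a (95% interval -0.48 to 0.11) to 0.26 for Pde3b (95% interval -0.11 to 0.63). Both ends rested on RVF+ 8, and without it Pde3a had -0.071 and Pde3b 0.065, while Pde2a had -0.19 (adjusted p = 0.629). A call in one group and not in the other, as for Pde2a and Pde5a (0.17 ± 0.11, adjusted p = 0.808), was therefore not shown to be a difference between the groups.

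Markers of other cell types changed beside the phosphodiesterases. Over all genes 14.1% were called higher and 13.6% lower in RVF+, and 8.86% and 8.29% in RVF. Of 10 macrophage and monocyte markers 9 rose in RVF+ and 6 in RVF, of 10 fibroblast markers 7 and 6, and of 9 smooth muscle and pericyte markers 4 and 3, with 0 lower in each case. The summed intensity of the smooth muscle and pericyte markers ranged over 3200 to 3475 for CON, 3596 to 4096 for RVF+ and 3582 to 4399 for RVF, so that all arrays of the last 2 lay above CON. In this list Pdgfrb, Mcam and Cspg4 rose in both groups and Tagln in RVF+. Myh11 (-0.11 in RVF+ and -0.014 in RVF), Smtn, Cnn1, Kcnj8 and Rgs5, the brightest of the list, did not pass in either. Fibroblast markers summed to between 6396 and 7471 (CON), 8288 and 9796 (RVF+), and 8036 and 9470 (RVF). In this list Col1a1, Col1a2, Thy1, Fap, Postn and Mfap5 rose in both groups and Lum in RVF+. Pdgfra (-0.042 in RVF+ and -0.13 in RVF), Tcf21 (-0.083 and -0.099) and Dcn (0.042 and 0.038) did not pass in either, and Dcn was the brightest. Of the 10 ventricular cardiomyocyte markers 4 fell and 1 rose in RVF+, and 0 fell and 1 rose in RVF. The part of cell makeup in the phosphodiesterase differences was not tested. Of 8 endothelial markers 2 rose in RVF+ and 0 in RVF, and their sums overlapped between all groups (CON 2592 to 2835, RVF+ 2640 to 4385, RVF 2614 to 3243). Lymphocyte markers had 2 of 8 higher in each group and 0 lower, with sums of 374 to 446 (CON), 534 to 910 (RVF+) and 540 to 717 (RVF). The 2 were Cd4 and Cd79b, and the sums rest largely on Cd4, the brightest of the list (mean of 8.07 in CON). Cd3e, Cd3g, Cd8a, Ms4a1, Lck and Cd2 did not pass in either group, and Cd2 had -0.24 in RVF+ and -0.36 in RVF. None of 6 adipocyte markers was called in either comparison, and 0 and 0 reached an unadjusted p under 0.05. Of all 17245 genes, 6588 reached it in RVF+ and 5118 in RVF. Red cell markers had 3 of 4 higher in RVF+ and 0 in RVF, lung epithelium markers 1 of 5 and 0, and atrial markers 1 of 5 higher in each group with 1 and 3 lower. The atrial marker that rose was Nppa (4.26 in RVF+ and 4.57 in RVF), while Kcnj3 fell in both groups (-1.40 and -1.12). Myl7 and Sln passed only in RVF (-1.93 and -1.86), with -1.52 and -1.49 in RVF+. The share of atrial tissue in the samples was not tested.

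Other genes of the pathway, taken from lists of 88 measured genes in all, are given by their place in it. Of these 88, 17 rose and 22 fell in RVF+ and 12 rose and 12 fell in RVF. Without RVF+ 8 the counts were 18 and 21 in RVF+ and 15 and 18 in RVF. Over all genes 27.7% were called in RVF+ and 17.1% in RVF, or 24.9% and 24.6% without RVF+ 8. The counts of the single lists below are to be read beside these shares. Their medians were -0.027 and 0.0014. Among 13 other phosphodiesterase genes Pde10a rose in both groups (0.55 ± 0.081, adjusted p = 7.57e-05, and 0.45 ± 0.086, adjusted p = 0.00145) and Pde4c, another gene of the cAMP-specific family, fell in both (-0.63 ± 0.13, adjusted p = 0.00182, and -0.56 ± 0.14, adjusted p = 0.0117). Without RVF 15 the call of Pde4c in RVF ended (-0.48 ± 0.16, adjusted p = 0.0520). Pde8a, a cAMP enzyme that rolipram does not inhibit, rose in RVF+ (0.50 ± 0.10, adjusted p = 0.00135) and had 0.27 ± 0.11 in RVF (adjusted p = 0.0991).

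On the side of synthesis, 3 of 9 adenylyl cyclase genes fell and 2 rose in each group. The 2 that rose were Adcy7 and Adcy4 in RVF+ and Adcy7 and Adcy2 in RVF. Adcy4 had 0.45 ± 0.11 in RVF+ (adjusted p = 0.00555) and 0.18 ± 0.12 in RVF (adjusted p = 0.360). Adcy5 and Adcy6, the main forms of heart muscle, were lower, Adcy5 by -0.76 ± 0.13 in RVF+ and -0.48 ± 0.14 in RVF and Adcy6 by -0.50 ± 0.11 and -0.60 ± 0.12. Adcy1 had -2.31 ± 0.20 and -1.76 ± 0.21, while Adcy7 was higher by 0.86 ± 0.14 and 1.13 ± 0.15. Adjusted p-values of these 4 genes ran from 7.89e-07 to 0.0232, and the call of Adcy5 in RVF ended without RVF 13, 14 or 16 (adjusted p = 0.0641, 0.0583 and 0.0583). With RVF+ 8 left out, the differences in RVF+ were -2.12 for Adcy1, -0.60 for Adcy5, -0.38 for Adcy6 and 0.69 for Adcy7. Adcy2 had 0.26 ± 0.14 in RVF+ (adjusted p = 0.176) and rose in RVF (0.56 ± 0.15, adjusted p = 0.0136), a call that was lost without RVF 14 (adjusted p = 0.0667). Of 10 guanylyl cyclase and natriuretic peptide receptor genes 1 rose and 1 fell in RVF+ and 1 rose in RVF, where 1 also fell without RVF+ 8. Npr3, the clearance receptor of natriuretic peptides, rose 1.37-fold in RVF+ (adjusted p = 0.0144) and 2.06-fold in RVF (adjusted p = 6.08e-05). Npr2, the receptor of C-type natriuretic peptide, fell 1.33-fold in RVF+ (adjusted p = 0.00802) and had -0.28 ± 0.12 in RVF (adjusted p = 0.104, and 0.00787 without RVF+ 8). The log2 difference of Npr2 in RVF+ was -0.41, or -0.28 with RVF+ 8 left out. Gucy1a1, a subunit of the nitric oxide receptor, had -0.31 ± 0.12 and -0.15 ± 0.13 and did not pass (adjusted p = 0.0735 and 0.506). Without RVF+ 8 its difference in RVF+ was -0.16 (adjusted p = 0.209).

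Among 11 receptor and G protein genes 6 rose and 1 fell in RVF+, and 4 rose and 1 fell in RVF, where 5 rose and 1 fell without RVF+ 8. The beta-adrenergic receptor gene Adrb1 was the one that fell, 1.51-fold in RVF+ (adjusted p = 0.000144) and 1.27-fold in RVF (adjusted p = 0.0235). Leaving out RVF 15 or 16 ended the RVF call of Adrb1 (adjusted p = 0.0864 and 0.0684). Grk5, a kinase that desensitises such receptors, rose 1.87-fold and 1.84-fold (adjusted p = 5.28e-06 and 1.96e-05), and Gnai2, an inhibitory G protein, 1.34-fold and 1.30-fold (adjusted p = 0.000117 and 0.00102). Of the related genes, Gnai3 rose in RVF+ (0.52 ± 0.11, adjusted p = 0.00195) and had 0.17 ± 0.12 in RVF (adjusted p = 0.380). Gnai1 had 0.25 ± 0.080 in RVF+ (adjusted p = 0.0251) and 0.31 ± 0.085 in RVF (adjusted p = 0.0164). The Gnai1 call in RVF+ was lost without CON 2, RVF+ 10 or RVF+ 12 (adjusted p = 0.0524, 0.0765 and 0.0656), after quantile normalization and after median centring (adjusted p = 0.0665 and 0.0860), and that in RVF without RVF 15 (adjusted p = 0.0592).

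Among 13 effector genes 1 rose and 5 fell in RVF+, and 1 rose and 2 fell in RVF. Without RVF+ 8, 2 rose and 4 fell in RVF+, and 1 rose and 4 fell in RVF. Prkaca, a catalytic subunit of protein kinase A, had -0.50 ± 0.081 and -0.29 ± 0.087 (adjusted p = 0.000225 and 0.0278). Its call in RVF ended without CON 2 or RVF 13, 14 or 16 (adjusted p = 0.0519, 0.0586, 0.0859 and 0.0684). The regulatory subunit gene Prkar2a had -0.35 ± 0.069 in RVF+ (adjusted p = 0.00119) and -0.21 ± 0.074 in RVF (adjusted p = 0.0624, and 0.0478 without RVF+ 8). Prkar1b, another regulatory subunit gene, fell 1.51-fold and 1.34-fold (adjusted p = 0.000725 and 0.0213), and Prkg2, a gene of protein kinase G, rose 1.37-fold and 1.36-fold (adjusted p = 0.00641 and 0.0188). Both were dim, with CON means of 4.37 for Prkar1b and 2.94 for Prkg2, against a median of 5.57 over all genes. Prkg1, also a gene of protein kinase G, was brighter, with a CON mean of 7.46. It fell 1.33-fold in RVF+ (-0.42 ± 0.12, adjusted p = 0.0139) and had -0.14 ± 0.13 in RVF (adjusted p = 0.514). In RVF the Prkar1b call was lost without RVF 13 or 14 (adjusted p = 0.0702 and 0.0748) and the Prkg2 call without RVF 13 or 15 (adjusted p = 0.0571 and 0.0780).

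Of 13 genes for anchors and partners, 2 rose in both groups, and 4 fell in RVF+ and 2 in RVF. Akip1, which binds protein kinase A, was 6.68-fold higher in RVF+ and 7.89-fold in RVF (adjusted p = 3.28e-07 in each), and Akap13 1.40-fold and 1.43-fold (adjusted p = 0.000227 and 0.000355). Akap9 fell 1.49-fold and 1.40-fold (adjusted p = 0.000133 and 0.00170), and Akap7 1.28-fold and 1.26-fold (adjusted p = 0.00784 and 0.0247). In RVF the Akap7 call was lost without RVF 13, 14 or 16 (adjusted p = 0.0859, 0.0602 and 0.0648). Akap6, an anchor that holds protein kinase A and a PDE4 enzyme at the nuclear envelope, fell 1.45-fold in RVF+ (-0.53 ± 0.11, adjusted p = 0.00129) and had -0.0027 ± 0.12 in RVF (adjusted p = 0.992).

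Of 15 targets of the kinases, 3 rose and 7 fell in RVF+, and 1 rose and 3 fell in RVF, where 3 rose and 5 fell without RVF+ 8. The phosphatase inhibitor gene Ppp1r1a, the calcium channel gene Cacna1c and the potassium channel gene Kcnq1 fell in both. Their differences in RVF+ and RVF were -0.77 ± 0.082 and -0.83 ± 0.088 for Ppp1r1a, -0.77 ± 0.14 and -0.66 ± 0.15 for Cacna1c, and -0.71 ± 0.11 and -0.49 ± 0.12 for Kcnq1, with adjusted p-values from 4.63e-06 to 0.00838. With RVF+ 8 left out, those in RVF+ were -0.76 for Ppp1r1a, -0.62 for Cacna1c and -0.58 for Kcnq1. Kcne1, which encodes the partner subunit of the Kcnq1 channel, rose in RVF+ (1.76 ± 0.33, adjusted p = 0.000747) and in RVF (2.22 ± 0.36, adjusted p = 0.000316). None of the 3 exporter genes passed by limma. Of these Abcc4, which carries cyclic nucleotides out of cells, had 0.22 ± 0.084 in RVF+ (adjusted p = 0.0595) and 1 gene reached an unadjusted p under 0.05 there, with 0 in RVF. Of all 17245 genes, 6588 did so in RVF+ and 5118 in RVF.

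**Figure D5:**
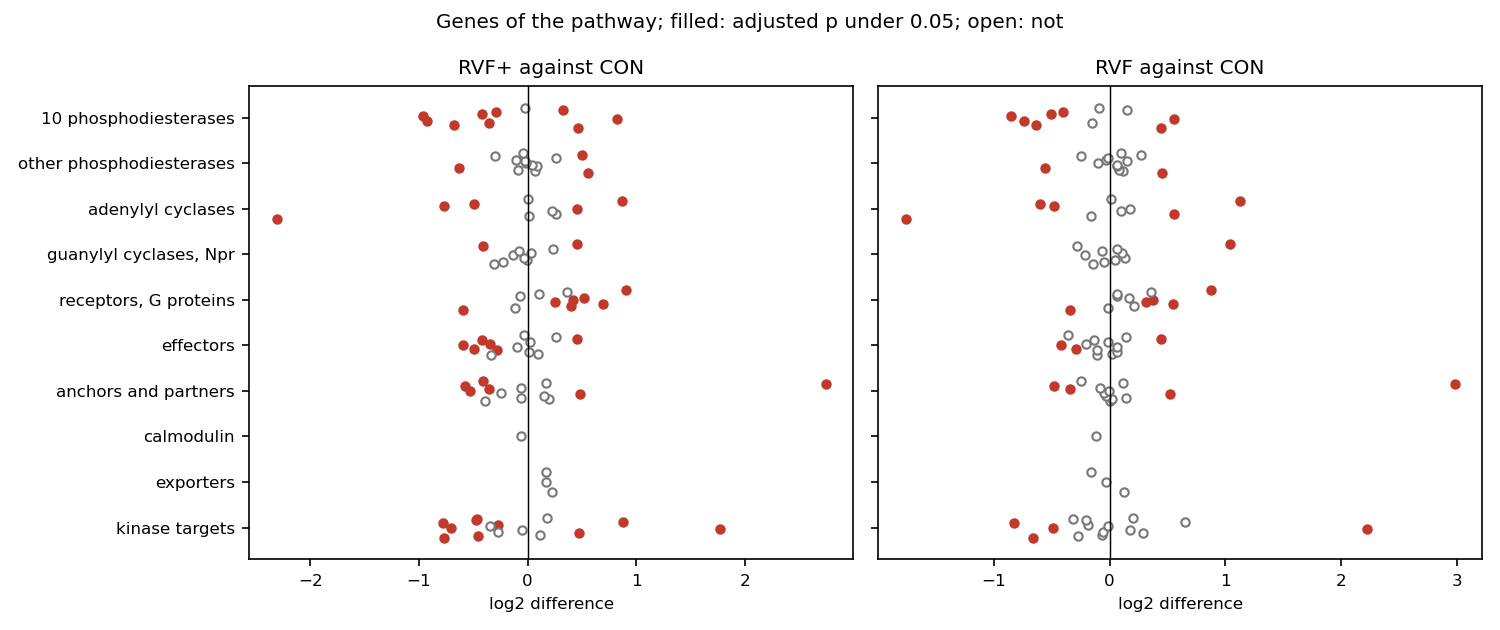
Log2 difference from CON (horizontal axis) of the 10 phosphodiesterases and of each measured gene of the pathway lists (rows), for RVF+ (left) and RVF (right). Filled points passed an adjusted p of 0.05. The rightmost point in each panel is Akip1 and the leftmost is Adcy1.

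For each phosphodiesterase the 3 genes with the highest Pearson correlation to it over the 16 arrays were listed. These correlations include the differences between groups and the position of RVF+ 8, and carry no test. Pde3a was most like Pcdh7 (r = 0.992), Fign (0.981) and Acsf2 (0.980), and Pde4a was most like Acsf2 (0.983), Ddit4l (0.982) and Eci1 (0.981), so that Acsf2, an acyl-CoA synthetase gene, was on both lists. Pde3b was most like Lmo2, Arl11 and Arpc3 (0.973, 0.972 and 0.972), and Pde1c was most like Psme1, Acss2 and Kcnk2 (0.972, 0.958 and 0.957). For Pde1a, Pde4b and Pde4d the closest genes were Spire1 (0.939), Zfp266 (0.920) and Phaf1 (0.943). The closest genes of Pde2a, Pde5a and Pde9a had lower values, with Stk11 at 0.882, Cdk17 at 0.873 and Arr3 at 0.856.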

How the data were processed

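Right ventricular RNA was measured on 16 arrays, 7 CON, 5 RVF+ and 4 RVF, grouped by their labels. Each probe set has 1 deposited intensity per array, linear, made by RMA per the submitters' processing notes, which name neither software nor build. The values ran from 2.20 to 10294, with array medians of 27.1 to 29.3, and were converted to log2. RMA compresses differences of dim probe sets, and precision is limited by how many arrays there were.

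Of 29214 probe sets, 18644 had exactly 1 symbol, 962 several and 9608 none. For 879 genes with several probe sets the one with the highest mean was used, which left 17245 genes. limma 3.58.1 (lmFit, eBayes) in R 4.3.3 fitted 1 mean per group to all arrays, with 13 residual and 4.45 prior degrees of freedom, with Benjamini-Hochberg adjustment across the whole table. On simulated arrays of 17245 genes, 50 genes were changed at each fold size. Of those changed 1.5-fold, 86% were recovered in RVF+ against CON, 88% in RVF against CON and 62% in RVF+ against RVF. Of those changed 1.25-fold, 24%, 14% and 18% were recovered in the same order. In the data 27.7% of all genes were called in RVF+ against CON and 17.1% in RVF against CON. The adjustment depends on how many genes change, so the simulated shares do not give the recovery in these data.

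Named pathway genes were drawn from the 4 with the smallest p per list and comparison, and Prkg1 and Adcy4 were named in addition. Members and lists were chosen with earlier results of these data known. Alternatives were other scaling, filters, probe set rules, moderation (statmod 1.5.0), a 1.2-fold minimum, weighted arrays and dropping single arrays. The labels give no batch or pairing. Promoter windows are from RefSeq, assembly GRCr8.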

Additional observations from a re-analysis of the deposited data

Results flagged for a closer look

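In 123 sets of arrays, each 1 gene in 1 group, 10 had an array far from the rest of its group by Dixon's criterion, where chance gives about 1 in 20. RVF 13 was low for Pde3a, at 8.38 against 8.68 for the next array, and without it the difference in RVF was -0.66 (adjusted p = 0.00508). RVF+ 8 was high for Pde3b, at 7.08 against 6.25, and without it the rise in RVF+ was 0.62. Among pathway genes, CON 2 was high for Adcy1 (7.56 against 7.38), RVF 15 for Adcy5 (9.24 against 9.14), RVF 14 for Adcy6 (7.68 against 7.57), RVF 13 for Akip1 (9.38 against 8.99) and for Calm3 (9.05 against 8.73), RVF+ 10 for Abcc4 (7.39 against 7.10) and CON 4 for Kcne1 (4.98 against 4.62). RVF+ 8 was low for Akap7 (6.13 against 6.59).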

How the results depend on the processing

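No paired analysis was possible because the labels give each sample a number of its own. Under the alternatives run, the 9 phosphodiesterase calls in RVF+ and the 7 in RVF kept their direction, and counts ran from 8 to 9 and from 6 to 7 when single arrays were left out, always with 0 between RVF+ and RVF. With a 1.2-fold minimum (treat) 4 of the 10 genes were called in RVF+ and 3 in RVF, where 7.62% and 3.83% of all genes were. In the pathway lists the counts of 39 and 24 became 12 and 7 with that minimum, and 24 became 37 when only the compared groups were fitted. With that last fit the calls over all genes in RVF also went up, from 1528 higher and 1429 lower to 2440 and 2026. Leaving out single arrays gave 38 to 45 and 18 to 33. The 33 came without RVF+ 8, where 24.6% of all genes were called in RVF, against 17.1% with all arrays. Pde1c was too dim to be tested when genes under the median level were dropped. Median centring moved the split over all genes in RVF+ from 2423 higher and 2348 lower to 1998 and 3004. Differences near 0 changed sign. With array weights Pde1a between RVF+ and RVF was -0.013 and Pde9a in RVF+ against CON 0.029. With single arrays left out, Pde1a ran from -0.055 to 0.093, Pde1c from -0.095 to 0.028, Pde9a from -0.043 to 0.19 and Pde1a minus Pde1c from -0.033 to 0.14 between RVF+ and RVF, Pde9a from -0.14 to 0.057 in RVF+ against CON, and Akap6 from -0.037 to 0.025 in RVF against CON. The cause of these changes was not tested. The 2 pairs were added after the data were seen.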
